A study of Homo sapiens with 12 samples.

Results

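NOMO-1, a human acute myeloid leukaemia line of monocytic type, was followed for 12 h in actinomycin D after ALKBH5 had been knocked down. The knockdown libraries at 12 h (shALKBH5, 12 h, n = 2) were set against the knockdown libraries at 0 h (shALKBH5, 0 h, n = 2), and the same 2 times in cells with a non-targeting hairpin (shNS, n = 2 each) served as the control course. The comparison used 4 knockdown libraries of 12 in the series and all 9529 genes of the deposited table, with the spike-in transcripts left out. Each knockdown time point held 1 library of a line called D and 1 of a line called E, letters that recur at every time and were used as line names. Each line carries 1 of 2 hairpins, and the hairpin behind each letter was not given in the sources used here. Per the labels, cells were infected with lentivirus and selected with puromycin. If this holds for all 12 libraries, both arms share these steps. The labels' treatment protocol names a lentivirus against FTO and a treatment with the drugs CS1 and CS2 or DMSO, whereas the sample titles and characteristics name ALKBH5 hairpins and actinomycin D and no such drug. The titles were followed, and nothing in the labels says whether the protocol text applies to these libraries.

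Actinomycin D inserts into DNA and blocks RNA polymerases, so the RNA that remains after hours in the drug is largely RNA made before it was added. Messages for regulators such as cell cycle, stress and transcription factors are classically short-lived, and messages for the translation machinery, metabolism and secretory or lysosomal proteins are classically long-lived. ALKBH5 erases N6-methyladenosine (m6A), a methyl mark on messenger RNA, and m6A bound by YTHDF2 is known to promote the decay of the message. Percent left is defined here as the deposited signal of a gene at 12 h over its signal at 0 h within the same line or replicate. It is given per unit of spike-in as far as the deposited scale holds, and no label states that scaling. The median ERCC spike-in was 31.35 and 30.84 in lines D and E at 12 h, against 32.97 and 29.85 at 0 h, while the mean log2 of the spike-ins was lower at 12 h in both lines (5.54 and 5.55, against 5.78 and 5.72). With that mean set equal across libraries the median gene kept 12.91% in line D and 12.02% in line E. It is also given relative to the median gene. In bulk RNA, fewer cells and less RNA per cell cannot be told apart, and percent left reads both.

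The knockdown was checked first. ALKBH5 (chr17:18183078-18209954, plus strand, GENCODE release 29 on GRCh38) had a signal of 0.636 and 0.973 in lines D and E at 12 h, against 25.4 and 21.2 in lines D and E at 0 h. The shNS replicates held 8.22 and 8.30 at 12 h, against 84.3 and 78.6 at 0 h. Both lines were therefore below both shNS replicates at either time. Gene totals of lines D and E were 186750 and 143765 at 12 h, against 953211 and 945067 at 0 h, and read depth is unknown. Of 13 monocytic and myeloid markers 8 were in the table, among them CD33, LYZ, ITGAM, SPI1 and CD68, while CD14, MPO, CSF1R, FCGR1A and S100A8 were not among its genes. No erythroid, megakaryocyte, epithelial or fibroblast marker was in the table. Of 5 T and NK cell markers only NKG7 was in it, with a signal of 72.4 and 115 in lines D and E at 12 h, which was 26.9% and 26.1% of its signal at 0 h.

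Nearly every RNA fell over the 12 h course in the knockdown cells. The median gene kept 10.9% of its signal in line D and 10.7% in line E, where the shNS replicates kept 11.9% and 12.9%. From the lower to the upper quartile the genes lay between 7.14% and 17.4% in line D and between 7.37% and 15.1% in line E. By limma, 9487 genes were lower at 12 h than at 0 h (99.6% of the genes tested) and 2 were higher (0.0210%), at a Benjamini-Hochberg adjusted p under 0.05. The median log2 change was -2.80 on the log2(signal + 1) scale. The 2 genes that rose were RN7SK and SNORD3A. Line D kept 19.6% of its gene total and line E 15.2%, more than the median gene in both. The ranks of the genes by percent left correlated between the lines with a Spearman rho of 0.857 across 9529 genes. Line E correlated more closely with the shNS replicates (0.916 and 0.908) than with line D, line D gave 0.843 and 0.82 with them, and the shNS replicates gave 0.97 with each other.

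**Figure D1:**
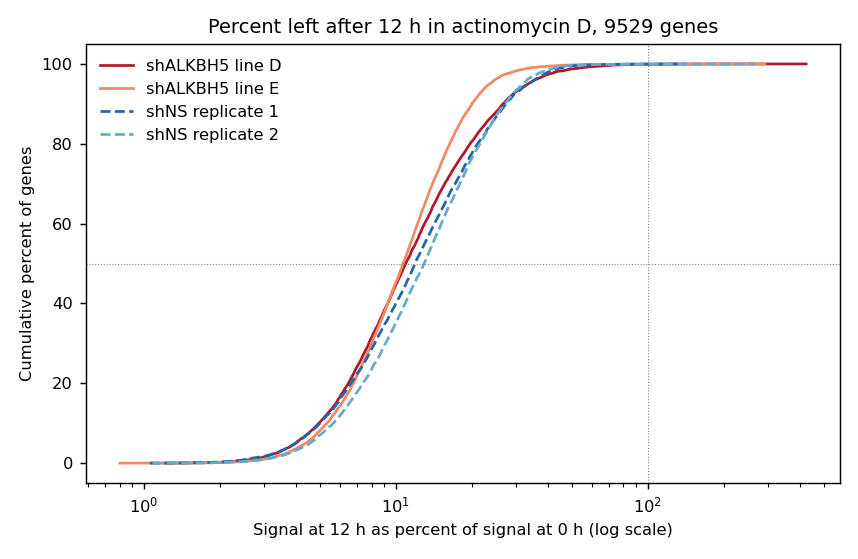
Cumulative percent of the 9529 genes (y axis) by the signal at 12 h as a percent of that at 0 h (x axis, log scale), 1 curve for each knockdown line (solid) and each shNS replicate (dashed). The curves cross the dotted line at the median gene at 10.9% for line D, 10.7% for line E, 11.9% for shNS replicate 1 and 12.9% for shNS replicate 2, and line E has the shortest upper tail.

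Since almost all genes fell, the classes were compared on a scale that sets the median gene to about no change (median-of-ratios scaling of each library). On that scale 2110 genes were higher at 12 h than at 0 h in the knockdown cells (22.1%) and 2302 were lower (24.2%). With the line as a replicate block these counts were 3333 (35.0%) and 3416 (35.8%), and with only the 4 knockdown libraries of the contrast in the fit they were 502 and 469. The shares of 22.1% and 24.2% are the background for the members counted in each class. The zero of that scale is a choice. Scaled to the ribosomal protein genes instead, the median gene moved by -0.98 on the log2 scale, and 178 genes were higher and 6562 lower. Higher and lower are given relative to the median gene wherever the deposited scale is not named. Of 43 functional classes, 14 lay above the median gene in both lines, 22 lay below it in both, and 7 lay on different sides or at the median. Of the 43 classes, 34 lay on 1 side in both lines and both shNS replicates.

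**Figure D2:**
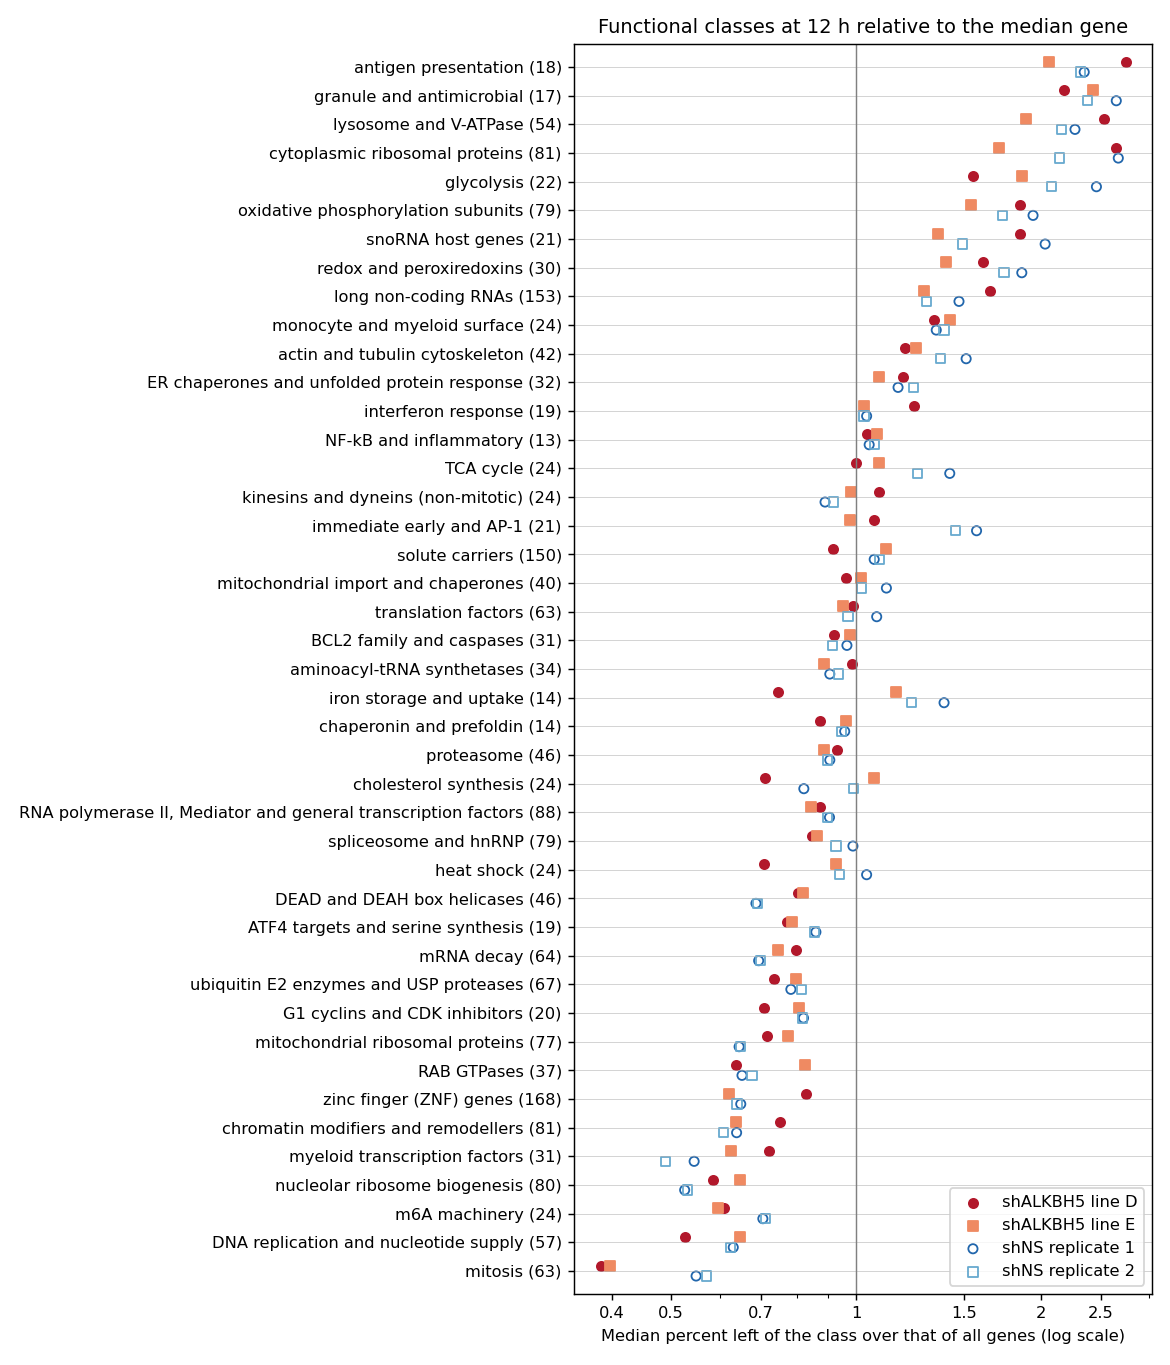
Median percent left of each functional class divided by that of all genes (x axis, log scale), with the number of members in brackets, for knockdown lines D and E (filled) and shNS replicates 1 and 2 (open). Antigen presentation (2.75 in line D, 2.06 in line E) is at the top and mitosis (0.384 and 0.398) at the bottom, and the vertical line at 1 is the median gene.

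CITED2, DDIT4 and MYC were among the 12 genes lowest relative to the median gene. CITED2 (chr6:139371807-139374620, minus strand), a coactivator that competes with hypoxia-inducible factor for CBP and p300, had a signal of 3.48 and 3.5 in lines D and E at 12 h, against 273 and 245 in lines D and E at 0 h. Its percent left was 1.27% and 1.43%, the lines lay close together, and the times were far apart. Its log2 change relative to the median gene was -2.89 ± 0.14 (SE), with a limma adjusted p of 7.11e-05.

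DDIT4 (chr10:72273920-72276036, plus strand), a stress-induced inhibitor of mTORC1, had 2.04 and 3.30 in lines D and E at 12 h, against 121 and 238 in lines D and E at 0 h. MYC, the growth-promoting transcription factor, had 4.46 and 3.39 in lines D and E at 12 h, against 275 and 209 in lines D and E at 0 h. Both lines kept 1.62% of MYC, where the shNS replicates kept 1.06% and 1.08%. GFI1, a transcriptional repressor of myeloid development, had 8.57 and 5.21 at 12 h in lines D and E, against 319 and 296 at 0 h. All 3 had a log2 change at or below -2.26 relative to the median gene. The 12 lowest genes were drawn only from genes whose 12 h libraries lay below those at 0 h without overlap. On that scale 32.8% of all genes did so, while 30.4% lay above.

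The rest of the 12 lowest genes had varied roles. USP1, a deubiquitinase of the DNA damage response, kept 1.21% in line D and 2.17% in line E. FBXO5, the inhibitor of the anaphase-promoting complex also called EMI1, kept 1.66% and 1.5%, against 3.71% and 3.91% in the shNS replicates. WEE1, the kinase that restrains CDK1, kept 1.40% and 1.73%, and CDKN1B, the CDK inhibitor p27, kept 3.08% and 1.55%. The others were BRIX1 (1.43% and 2.27%) and NIFK (1.88% and 2.54%), which act in the nucleolus, NDC80 of the kinetochore, and the small nucleolar RNA SNORD36A. SNORD36A lies within an intron of RPL7A, so its reads may be split with the host, and its log2 change of -2.31 ± 0.53 was the least precise of the 12.

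The heptamer TATTTAT, the core of the AU-rich elements that recruit decay factors, was looked for on the sense strand of the annotated 3′ UTRs. It was present in 4 of the 10 lowest genes that have an annotated 3′ UTR (40.0%), in 1 of the 7 highest (14.3%), and in 31.2% of 8683 protein-coding genes. The first match in each of these 4 of the 10 lowest genes is shown. Each is written 5′ to 3′ on the transcript's strand with the heptamer in capitals (GENCODE release 29, GRCh38). USP1 is at chr1:62451552-62451578 on the plus strand, BRIX1 at chr5:34925522-34925548 on the plus strand, GFI1 at chr1:92474791-92474817 on the minus strand and CDKN1B at chr12:12721534-12721560 on the plus strand.
USP1: attttatatgTATTTATgaagatgatt
BRIX1: agttactttaTATTTATtttgtattca
GFI1: tgttaatacaTATTTATtagagtgatg
CDKN1B: agataattgcTATTTATttttacaaga
A match is a description of the sequence, and nothing here measures binding. CITED2, DDIT4, FBXO5, WEE1, NDC80 and NIFK had no match in the transcript used. MYC, whose transcript used here had no annotated 3′ UTR, and SNORD36A, which is non-coding, were not searched.

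**Figure D3:**
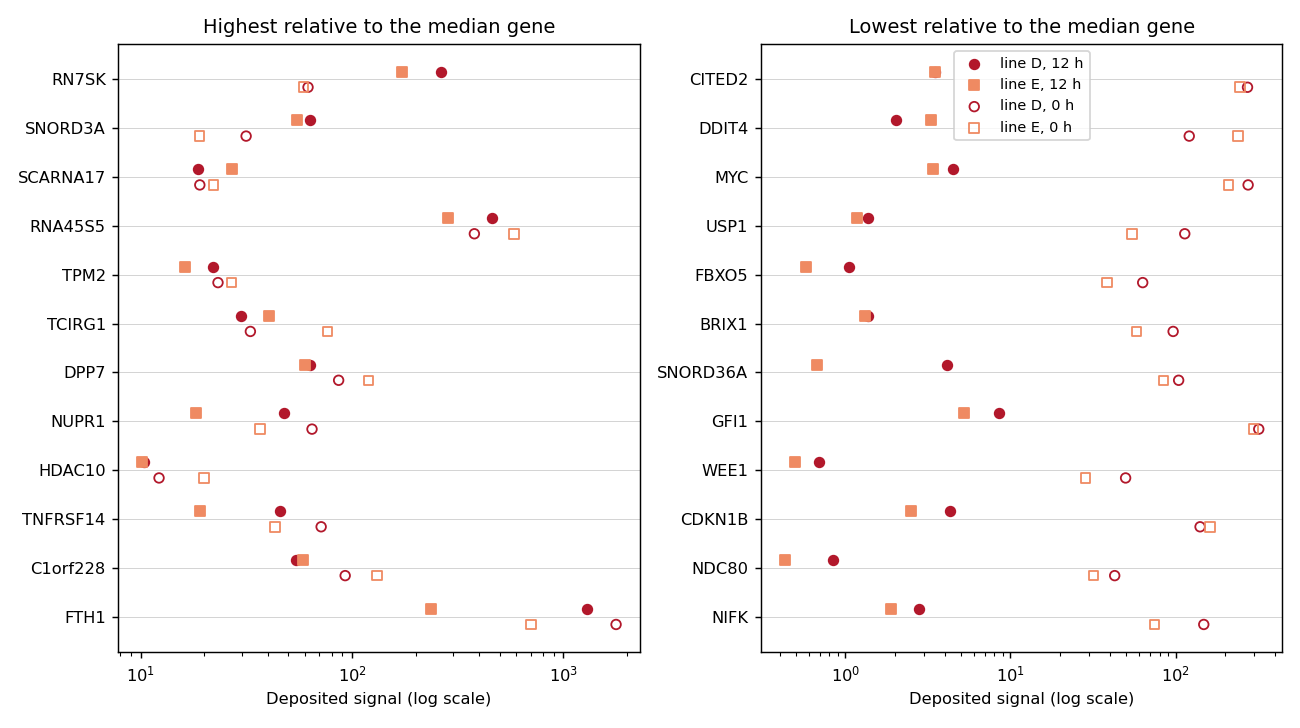
Deposited signal (x axis, log scale) of the 12 genes highest (left) and the 12 lowest (right) relative to the median gene, with 12 h filled and above 0 h, which is open, for lines D and E. In the lowest genes the times lie apart by more than 10-fold in both lines, as for CITED2 with 3.48 and 3.5 at 12 h and 273 and 245 at 0 h, while in RN7SK the 12 h values lie above those at 0 h.

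Mitotic genes were the lowest class. Its 63 members kept a median of 4.20% (line D) and 4.24% (line E), or 0.384 and 0.398 of the median gene. Of the 63 members, 50 were lower relative to the median gene and 1 was higher, where 24.2% and 22.1% of all genes were. TTK, the spindle checkpoint kinase MPS1, had 0.844 and 0.453 at 12 h in lines D and E, against 45.5 and 25.7 at 0 h. NDC80, which ties the kinetochore to microtubules, had 0.846 and 0.430 at 12 h, against 42.8 and 31.9 at 0 h. The times did not overlap for either gene, which the rule for the 12 lowest required of NDC80. After scaling, 32.8% of all genes lay below without overlap. The 12 h signals of both genes were near the lowest deposited value of 0.338. The 1 higher member was CKS1B, a small CDK-binding subunit, with 32.5 and 29.7 at 12 h in lines D and E, against 180 and 216 at 0 h, which is 18.1% and 13.8% left. CENPM, a centromere protein, was near the median gene (11.7% and 10.6%, adjusted p = 0.921).

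DNA replication and nucleotide supply genes also lay low, at 5.76% and 6.89%, with 32 of 57 lower and 1 higher, beside 24.2% and 22.1% of all genes. ORC1, a subunit of the origin recognition complex, had 1.42 and 1.27 at 12 h in lines D and E, against 49.6 and 44.0 at 0 h. The higher member was IMPDH1, an enzyme of guanine nucleotide synthesis, with 25.2% and 19.7% left. Among G1 cyclins and CDK inhibitors 8 of 20 were lower and 3 higher, and the group held both CDKN1B and CDKN2A, the p16 locus, with 30.3% and 19.9% left.

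The apparatus that builds ribosomes and the ribosome itself lay on opposite sides of the median gene. Nucleolar ribosome biogenesis genes kept 6.4% in line D and 6.90% in line E, with 49 of 80 lower and 3 higher, beside 24.2% and 22.1% of all genes. MPHOSPH10, part of the U3 snoRNP complex that processes the 18S precursor, had 1.85 and 1.17 at 12 h in lines D and E, against 78.6 and 43.9 at 0 h. NOP16 had 1.93 and 1.71 at 12 h in lines D and E, against 76.4 and 45.1 at 0 h. Cytoplasmic ribosomal protein genes kept 28.9% in line D and 18.2% in line E, with 75 of 81 higher and 1 lower. RPLP2, a stalk protein, had 628 and 467 at 12 h in lines D and E, against 1488 and 1686 at 0 h, and was higher relative to the median gene by a log2 of 1.65 ± 0.16 (adjusted p = 0.000254). The 1 lower member was RPL39L, a paralogue of RPL39, with 4.50 and 4.72 at 12 h, against 76.9 and 55.9 at 0 h. Ribosomal protein genes have many processed pseudogenes, and how the counting split reads between near-identical copies was not given in the sources used here.

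Messages of ribosomal proteins are known to begin with a C followed by pyrimidines, the 5′ terminal oligopyrimidine (TOP) that couples their translation to mTOR. A start of C and at least 4 further C or T was read from RefSeq starts (GRCh38.p14) in 42 of 64 matched ribosomal protein genes (65.6%) and in 5.27% of 7213 other genes. The first bases of a pair with such a start and of the low member RPL36AL without it are shown to compare them, with the run of pyrimidines in capitals. RPLP2 starts at chr11:809967-809986 on the plus strand, RPL28 at chr19:55385932-55385951 on the plus strand and RPL36AL at chr14:49620607-49620626 on the minus strand.
RPLP2: CCTTTTCCTCCCTgtcgcca
RPL28: CTCTTTCCgtctcaggtcgc
RPL36AL: cctgttaggcgagagctgcg
Within the class the medians with and without the start lay close together. Ribosomal protein genes with such a start kept 28.8% (line D) and 18.4% (line E), and those without kept 27.7% and 17.2%. RPL36AL itself was near the median gene, with 10.6% and 9.68% left.

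Mitochondrial and cytoplasmic ribosomal proteins also differed in place. Mitochondrial ribosomal protein genes kept 7.83% in line D and 8.25% in line E, with 33 of 77 lower and 10 higher, beside 24.2% and 22.1% of all genes. MRPS30 had 2.13 and 2.00 at 12 h in lines D and E, against 70.1 and 64.4 at 0 h, while MRPL23 kept 26.8% and 18.9%. Oxidative phosphorylation subunits, whose nuclear genes work in the same organelle, kept 20.3% and 16.4%, with 45 of 79 higher and 1 lower. NDUFA3 of complex I had 111 and 57.0 at 12 h in lines D and E, against 243 and 249 at 0 h. The lower member was UQCRFS1, the Rieske iron-sulfur protein of complex III, with 6.50% and 7.70% left. Of 40 mitochondrial import and chaperone genes 9 were higher and 11 lower, shares close to those of all genes, with TOMM7 at 34.4% and 20.8% left and TOMM70 at 2.85% and 4.13%.

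Antigen presentation, granule and lysosomal genes stood farthest above the median gene when both lines were averaged, just ahead of the ribosomal proteins. Lysosome and V-ATPase genes kept 27.6% in line D and 20.1% in line E, with 35 of 54 higher (22.1% of all genes). Under the block 48 were higher and 1 lower, beside 35.0% and 35.8% of all genes. PSAP, the precursor of the saposins that activate sphingolipid hydrolases, had 565 and 187 at 12 h in lines D and E, against 886 and 632 at 0 h. CTSH, a cysteine protease, had 159 and 43.9 at 12 h in lines D and E, against 242 and 145 at 0 h. Line D kept more of either, 63.8% of PSAP and 65.8% of CTSH, than line E, which kept 29.6% and 30.2%. CD68, a lysosomal glycoprotein of monocytes and macrophages, had 192 and 128 at 12 h in lines D and E, against 318 and 376 at 0 h, a log2 of 2.05 ± 0.20 relative to the median gene (adjusted p = 0.000228).

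Granule and antimicrobial genes kept 23.8% (line D) and 25.9% (line E), and 14 of 17 were higher, beside 22.1% of all genes. CAMP, the cathelicidin precursor, had 6.10 and 7.51 at 12 h in lines D and E, against 15.7 and 20.9 at 0 h. CFD, the serine protease complement factor D, had 23.4 and 40.7 at 12 h in lines D and E, against 54.3 and 129 at 0 h. Antigen presentation genes kept 30.1% and 22.0%, with 12 of 18 higher, beside the same 22.1% of all genes. HLA-C had 425 and 331 at 12 h in lines D and E, against 1038 and 1288 at 0 h, although HLA genes are polymorphic and near-identical and their counts are uncertain. CD74, the invariant chain of MHC class II, kept 34.9% in line D and 32.0% in line E from levels that differed, 31.8 and 135 at 12 h against 91.1 and 421 at 0 h. It passed with the line as a block (adjusted p = 5.64e-06) and not without it (0.190).

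Iron storage messages stood apart within their class. FTL, the ferritin light chain, had 5859 and 3128 at 12 h in lines D and E, against 11881 and 11841 at 0 h. FTH1, the heavy chain, had 1295 and 235 at 12 h in lines D and E, against 1779 and 703 at 0 h. FTH1 was the last of the 12 highest genes and the least secure, with a log2 of 2.18 ± 0.78 (adjusted p = 0.0458), and 13 of 23 alternatives ended its call, among them leaving out any 1 shNS library. Some of the 23 leave 1 library in a group, whose spread then comes from the other groups. IREB2 (4.53% and 4.24%) and FBXL5 (3.5% and 3.33%), which control iron uptake and storage, were lower than the median gene. Both ferritin genes have processed pseudogenes.

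Other protein-coding genes among the 12 highest were TPM2, a tropomyosin (94.2% and 59.99% left), TCIRG1, a V-ATPase subunit (90.0% and 52.7%), and DPP7, a lysosomal dipeptidase (73.0% and 50.3%). NUPR1, a stress-induced chromatin protein, had 47.4 and 18.2 at 12 h in lines D and E, against 64.6 and 36.8 at 0 h. HDAC10, a deacetylase of polyamines, kept 84.5% and 51.0%, TNFRSF14 63.8% and 44.0%, and C1orf228 58.5% and 44.6%. Line D kept more than line E of all 7 of these genes. Over all genes line D also had the longer upper tail, with an upper quartile of 17.4% against 15.1% in line E.

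Metabolic and stress classes were mixed. Glycolysis genes kept 16.9% in line D and 19.9% in line E, with 10 of 22 higher and 3 lower, beside 22.1% and 24.2% of all genes. GAPDH had 922 and 895 at 12 h in lines D and E, against 3592 and 4161 at 0 h, and was higher than the median gene (log2 1.11 ± 0.15, adjusted p = 0.000742). LDHA, lactate dehydrogenase A, lay below it, with 28.9 and 34.4 at 12 h against 612 and 565 at 0 h. Among ATF4 targets and serine synthesis genes 8 of 19 were lower and 4 higher, the class holding NUPR1 at the top and DDIT4 at the bottom. ATF4 itself, the transcription factor of the integrated stress response, kept 22.2% and 22.5%. XBP1, the transcription factor of the unfolded protein response, had 5.43 and 7.60 at 12 h in lines D and E, against 294 and 214 at 0 h, whereas P4HB, a protein disulfide isomerase of the endoplasmic reticulum, kept 27.8% and 23%. Of 24 cholesterol synthesis genes 5 were higher and 7 lower, near the shares of all genes, with DHCR7 at 20.6% and 21.7% left and SQLE at 2.51% and 5.10%.

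Classes that act in transcription and RNA processing differed in place. Of 79 spliceosome and hnRNP genes 19 were lower and 5 higher, and of 88 RNA polymerase II, Mediator and general transcription factor genes 28 were lower and 12 higher, beside 24.2% lower and 22.1% higher of all genes. Myeloid transcription factors kept 7.90% in line D and 6.68% in line E, with 15 of 31 lower, and the 1 higher member was SPI1, the monocyte and granulocyte factor PU.1, with 18.7 and 18.5 at 12 h against 123.1 and 139 at 0 h. Chromatin modifiers and remodellers kept 8.22% and 6.81%, with 39 of 81 lower and 6 higher. ARID1A, a subunit of the SWI/SNF remodeller, had 3.09 and 1.80 at 12 h in lines D and E, against 75.7 and 63.8 at 0 h, while HDAC1 kept 23.7% and 17.9%. Zinc finger (ZNF) genes, a large family of mostly KRAB-linked DNA-binding proteins, kept 9.07% and 6.62%, with 65 of 168 lower and 11 higher. Immediate early and AP-1 genes lay near the median gene as a class (11.7% and 10.4%) but were spread widely, with 48.9% and 24.5% of JUN and 1.62% of MYC left. JUN was higher relative to the median gene (adjusted p = 0.0271), and 5 of 23 alternatives ended that call, while FOS was not among the genes of the table.

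The m6A machinery kept a median of 6.67% (line D) and 6.34% (line E), with 12 of 24 lower and 2 higher, beside 24.2% and 22.1% of all genes. YTHDF2, the reader that recruits the CCR4-NOT deadenylase, had 2.63 and 2.16 at 12 h in lines D and E, against 103 and 69.5 at 0 h (log2 -1.81 ± 0.15, adjusted p = 0.000174). METTL14, the partner of the methyltransferase METTL3, kept 5.59% and 5.54%, and FTO, the other m6A demethylase, kept 5.79% and 5.64%. METTL3 was called higher with 12.6 and 7.15 at 12 h in lines D and E, against 52.9 in both lines at 0 h, and this call was lost in 6 of 23 alternatives and the sign turned in 1. ALKBH5 itself kept 2.5% in line D and 4.59% in line E, against 9.74% and 10.6% in the shNS replicates. Its log2 change relative to the median gene was -1.32 ± 0.26 (adjusted p = 0.00357), and the difference between arms was -1.05 (adjusted p = 0.55). TACC3, a spindle protein studied as an ALKBH5 target in leukaemia, kept 7.10% and 6.95%, against 12.5% and 12.1% in the shNS replicates, a relative difference that passed with the block (adjusted p = 0.0448) and not without it (0.589).

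RNAs that carry no poly(A) tail led the upper end. RN7SK (chr6:52995621-52995948, plus strand) is the small nuclear RNA that, with HEXIM1, holds the elongation kinase P-TEFb inactive. It had 263 and 172 in lines D and E at 12 h, against 61.9 and 58.9 in lines D and E at 0 h. It was one of the 2 genes called higher on the deposited scale (log2 1.80 ± 0.32, adjusted p = 0.000111), and its percent left was 358% ± 94.2 (SD, n = 2) in the knockdown lines and 79.4% ± 8.34 (SD, n = 2) in shNS. The start of the RNA (chr6:52995621-52995680, plus strand) is shown because it is the end that HEXIM1 contacts. Every GATC, which reads GAUC in the RNA, is in capitals. GAUC is part of the known HEXIM1 site, but the capitals mark the motif and not the bounds of that site.
RN7SK: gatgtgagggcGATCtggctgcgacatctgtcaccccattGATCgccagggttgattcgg
SNORD3A (chr17:19188016-19188714, plus strand), the U3 small nucleolar RNA, had 63.1 and 54.9 at 12 h in lines D and E, against 31.5 and 18.9 at 0 h, while the shNS replicates kept 107% and 88.6%. SCARNA17 kept 98.2% and 122%, and RNA45S5, the ribosomal RNA precursor, kept 121% and 48.7%. Genes above 100% numbered 5 in line D and 8 in line E. Chosen after their values were seen, those beyond the ones above were CCDC78 and SCARNA7 in line D, and SCARNA7, RMRP, RPPH1, GAPLINC and SNORA21 in line E. Mature ribosomal RNA kept more than the median mRNA in the knockdown lines, with RNA18S5 at 22.8% and 16.4% and RNA28S5 at 27.6% and 17.8%. Of these, only RNA18S5 is set against the shNS replicates here, which kept 12.0% and 12.8%. Limma without the block did not call that difference between arms. Ribosomal RNA and the other RNAs above without a poly(A) tail share a limit. Such RNAs enter a poly(A) library only in part and have many genomic copies, and whether their capture changed with time was not tested.

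Long non-coding RNAs as a class kept 18% in line D and 13.7% in line E, with 55 of 153 higher and 5 lower, beside 22.1% and 24.2% of all genes. MALAT1 (chr11:65497688-65506516, plus strand), an abundant nuclear RNA, had 205 and 201 at 12 h in lines D and E, against 539 and 671 at 0 h, which was higher than the median gene by a log2 of 1.63 ± 0.17 (adjusted p = 0.000291). NEAT1, the neighbouring gene that scaffolds paraspeckles, had 10.6 and 7.15 at 12 h in lines D and E, against 45.6 and 123.1 at 0 h, and its lines parted, with 23.3% and 5.81% left. Hosts of small nucleolar RNAs ran from SNHG9 (48.0% and 31.5%) to SNHG3 (4.54% and 3.01%), with 11 of 21 higher and 2 lower.

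By rank correlation, percent left followed base composition more closely than length. Among protein-coding genes, GC at the wobble position, the last base of each codon, correlated with percent left with a Spearman rho of 0.43 in line D and 0.416 in line E across 8751 genes, which share libraries and base composition. In 5 equal groups of genes from the lowest to the highest by that measure, the median percent left was 7.09%, 8.91%, 11.6%, 13.3% and 15.4% in line D and 7.69%, 9.04%, 10.8%, 12.6% and 14.2% in line E. GC of the 3′ UTR gave a rho of 0.416 and 0.382 across 8683 genes. A longer 3′ UTR went with less left, with a rho of -0.279 and -0.274. Coding length gave -0.117 (line D) and -0.229 (line E), and the number of exons 0.018 and -0.038. The signal at 0 h gave -0.059 and -0.007, but the relation was not monotonic. In 5 equal groups from the lowest to the highest signal at 0 h the median percent left was 13.8%, 9.58%, 8.83%, 9.17% and 12.8% in line D and 12.5%, 9.39%, 8.88%, 9.51% and 12.6% in line E. The shNS replicates gave a rho of 0.358 and 0.29 for GC at the wobble position.

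**Figure D4:**
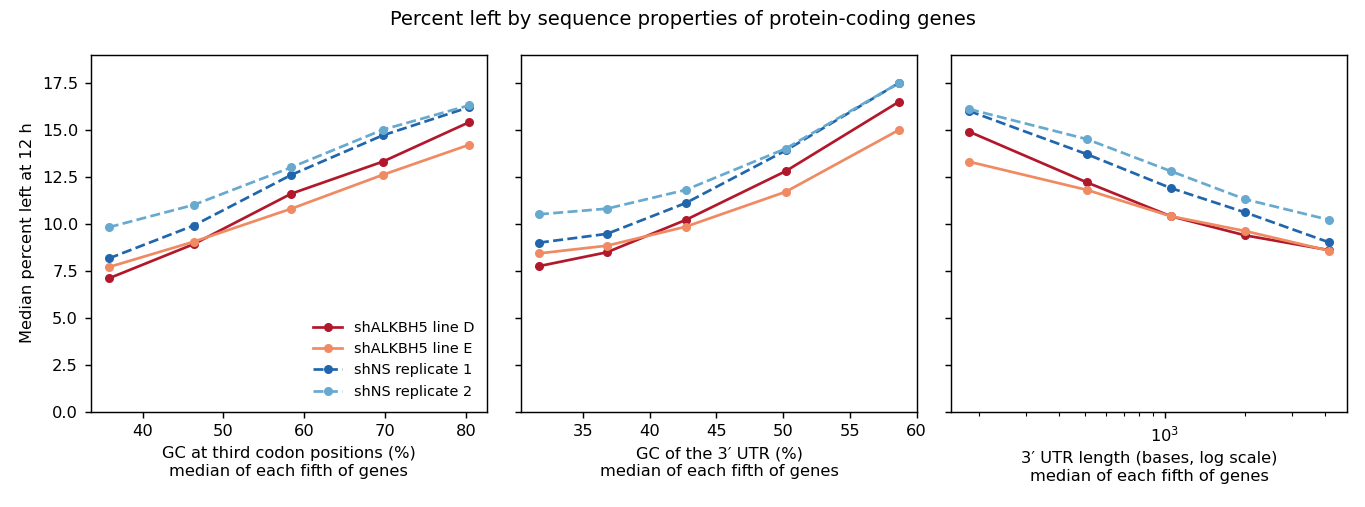
Median percent left at 12 h (y axis) in 5 equal groups of protein-coding genes, placed at each group's median GC at the wobble position, GC of the 3′ UTR and 3′ UTR length (x axes, the last on a log scale), for the knockdown lines (solid) and shNS replicates (dashed). In line D the median is 7.09% in the group lowest by GC at the wobble position and 15.4% in the highest, and it is 14.9% for the shortest 3′ UTRs and 8.59% for the longest.

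TATTTAT in the 3′ UTR went with less left as well. Genes with no match kept 11.8% in line D and 11.5% in line E, those with 1 match 9.02% and 9.09%, and those with 3 or more 8.26% and 8.09%. Longer UTRs hold more matches, so the groups were also read within 5 equal groups by UTR length. In the group of shortest UTRs, genes with a match kept 10.1% and 9.65%, against 15.2% and 13.5% for those without. In the group of longest UTRs they kept 8.38% and 8.39%, against 9.21% and 9.04% for those without, and the medians lay in the same order in all 5 length groups in both lines. By class the match was most common in immediate early and AP-1 genes (15 of 20, with MYC not searched), which lay near the median gene. It was in 0 of 17 granule and antimicrobial genes, beside 31.2% of all protein-coding genes with a 3′ UTR. Classes below the median gene lay on both sides of that share. The match was in 22.2% of mitosis, 17.5% of DNA replication and 15.0% of nucleolar ribosome biogenesis genes. It was in 41.8% of chromatin modifiers and 45.9% of RAB GTPases.

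The lines shared the side of most classes and differed in how far the retained classes stood out. The log2 ratio of line D to line E in relative percent left had an SD of 0.472 over 7871 genes with a signal of at least 10 at 0 h in both lines, and 145 genes were more than 1 log2 unit higher in line D and 128 in line E. Ribosomal protein genes stood at 2.65 (line D) and 1.71 (line E) times the median gene, and lysosome and V-ATPase genes at 2.53 and 1.89. Iron storage and uptake genes stood at 0.746 (line D) and 1.16 (line E), and cholesterol synthesis genes at 0.712 and 1.07. With 1 library for each line and time these gaps have no replicate and were not tested.

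**Figure D5:**
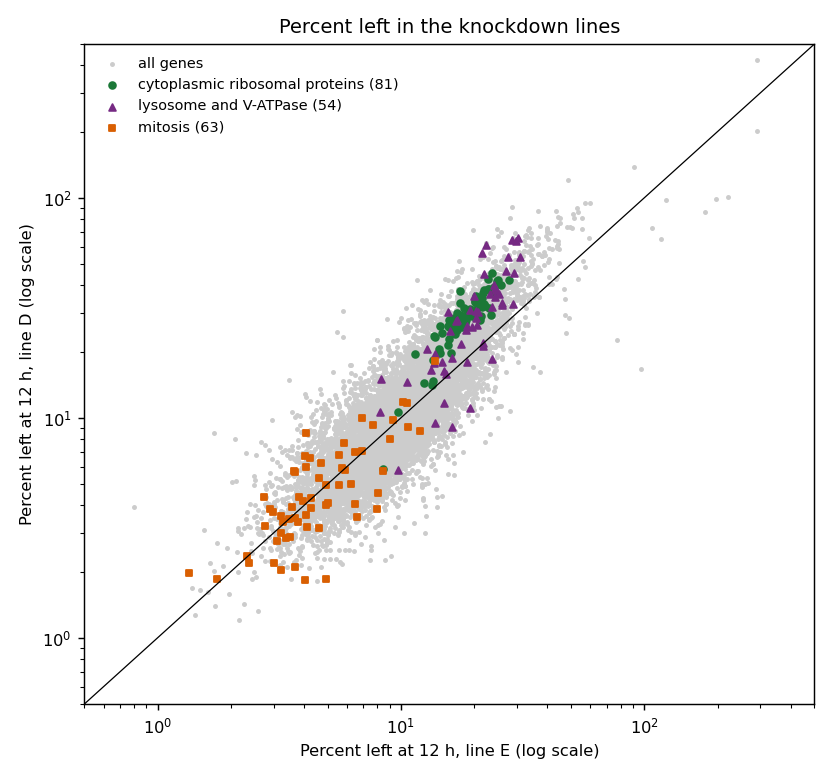
Percent left at 12 h in line D (y axis) against line E (x axis), both on log scales, for all 9529 genes (grey), cytoplasmic ribosomal proteins (circles), lysosome and V-ATPase genes (triangles) and mitosis genes (squares), with the line of equal values. Ribosomal protein genes lie mostly above the line (medians of 28.9% for D and 18.2% for E), while mitosis genes lie around it (4.20% and 4.24%).

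Single genes parted further. DDIT3, the stress transcription factor CHOP (chr12:57516588-57521737, minus strand), had 6.17 and 1.46 at 12 h in lines D and E, against 72.6 and 85.3 at 0 h, so that 8.49% and 1.71% were left. HOXA10-AS kept 24.6% and 5.44%. At the other end, NDUFV2 of complex I had 2.99 and 16 at 12 h in lines D and E, against 133 and 186 at 0 h. SNRPC of the U1 snRNP had 1.90 and 23.3 at 12 h in lines D and E, against 63.3 and 187 at 0 h, and SBDS, a ribosome maturation factor, kept 3.58% and 12.7%. The lines of SNRPC thus differed at both times. These genes were picked as the largest gaps, and their values are a description.

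Set against the shNS course, no gene's 12 h change was called different in the knockdown cells. On the deposited scale limma called 0 genes (0% in either direction, smallest adjusted p 0.985), with 16 higher and 321 lower at an unadjusted p under 0.05. The line and replicate as a block gave 13 higher (0.136%) and 209 lower (2.19%). Relative to the median gene 0 were called (0%, smallest adjusted p 0.213), with 443 higher and 350 lower at an unadjusted p under 0.05, and the block gave 169 higher (1.77%) and 166 lower (1.74%). Deviations of the shNS replicates correlated at 0.047 between 0 and 12 h, so their numbers do not show pairing, against 0.685 for the knockdown lines. With the block in the knockdown arm only, an alternative chosen with the data in view, limma called 389 higher (4.08%) and 413 lower (4.33%), and these hold all 335 genes called with the block in both arms. On simulated data the relative test recovered 31% of genes given a difference of 1 log2 unit and 87% of those given 2. It also called 10 genes given none. Only genes of higher signal were given a difference, and no deviation was shared by a line, so the real rates may differ.

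The genes named next had the smallest unadjusted p on either scale. THRA, the thyroid hormone receptor alpha (chr17:40058290-40093867, plus strand), had 3.60 and 2.88 at 12 h in lines D and E, against 24.1 and 20.6 at 0 h, and kept 14.9% and 14% where the shNS replicates kept 36.0% and 36.8%. The arms did not overlap, and the relative difference was -1.12 log2 (adjusted p = 0.213 without the block and 0.0165 with it). THRA overlaps NR1D1 on the opposite strand, and whether the counting used strand was not given in the sources used here.

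SLC3A2, the heavy chain of amino acid transporters (chr11:62856102-62888875, plus strand), kept 8.91% and 8.36%, against 20.7% and 19.5% in the shNS replicates. KIF23, a kinesin of cytokinesis, kept 2.88% and 3.52%, against 8.49% and 9.01%. RRM2, the small subunit of ribonucleotide reductase, kept 7.36% and 10.6%, against 21.4% and 22.4%, and TUBA1B, an alpha tubulin, 8.62% and 9.56%, against 18.5% and 17.6%. SLC2A1, the glucose transporter GLUT1, kept 5.14% and 5.91%, against 12.3% and 14.6%. In the other direction TRIB3, a pseudokinase induced by ATF4, kept 5.74% and 4.55%, against 2.71% and 3.39% in the shNS replicates, and RBM23 6.80% and 6.74%, against 3.52% and 3.58%. LDHA kept 4.72% and 6.10%, against 3.27% and 3.69%. Relative to the median gene SLC3A2, KIF23, RRM2, SLC2A1, TRIB3 and RBM23 passed with the block and not without it, while TUBA1B and LDHA passed only with the block in the knockdown arm alone (adjusted p = 0.0375 and 0.0317). RN7SK had the largest relative difference among the genes named, a log2 of 2.30 ± 0.44 with an adjusted p of 0.455 without the block and 0.0165 with it. In each of these genes both knockdown lines lay on 1 side of both shNS replicates, a pattern on the percent scale that 41.2% of all genes showed downward and 12.1% upward.

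Mitosis genes lay lower in the knockdown course than in the shNS course. The class stood at 0.384 and 0.398 of the median gene in lines D and E, against 0.549 and 0.571 in the shNS replicates. Relative to the median gene, 48 of its 63 members were lower in both lines than in both shNS replicates and 1 was higher, where 23.7% and 27.6% of all genes were. By limma without the block 0 of the 63 were called, with 16 lower and 1 higher at an unadjusted p under 0.05, where 3.67% and 4.65% of all genes were. With it 14 were lower and 0 higher, where 1.74% and 1.77% of all genes were, and with the block in the knockdown arm only 25 were lower and 0 higher, where 4.33% and 4.08% of all genes were. These 14 include BUB1B (5.82% and 5.91% left, against 11.8% and 12.5% in shNS), KIF4A (11.8% and 10.2%, against 21.3% and 23.9%), BIRC5, the survivin gene (8.74% and 12.0%, against 20.04% and 23.6%), and UBE2C (4.05% and 6.51%, against 11.5% and 13.6%), picked after their values were seen. Without the block the smallest adjusted p among the 14 was 0.455. Glycolysis genes stood at 1.55 and 1.86 in lines D and E, against 2.46 and 2.08 in the shNS replicates, and immediate early and AP-1 genes at 1.07 and 0.978, against 1.57 and 1.45. At an unadjusted p under 0.05, 4 of 22 glycolysis genes were higher and 5 lower in that comparison, as were 2 and 5 of 21 immediate early and AP-1 genes, beside 4.65% higher and 3.67% lower of all genes, and limma called 0 of either class. With the block 1 glycolysis gene was higher and 1 lower, and 0 immediate early and AP-1 genes were higher and 3 lower. The median of myeloid transcription factors was 0.722 and 0.626, against 0.545 and 0.490 in the shNS replicates, but 2 of the 31 were higher and 2 lower at an unadjusted p under 0.05, with 0 called, and 2 higher and 1 lower with the block.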

How the data were processed

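The 12 libraries of poly(A) RNA form 6 groups of 2 (shALKBH5 or shNS, 0, 8 or 12 h in the drug) and were prepared with a stranded kit, per the labels. As deposited by the authors, each gene symbol has 1 signal value per library, apparently brought to a common level of 46 ERCC spike-ins, although no label says so. STAR, RSEM and GRCh38 are named in the submitters' processing notes, with no versions. Whether replicates were separate cultures is not said, so p-values measure only the spread among these libraries, possibly a technical one. The deposited table holds no counts, so read depth is unknown.

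All 9529 genes had a mean signal of at least 1 (lowest 1.30). Tests were run on log2(signal + 1) with limma 3.58.1 in R 4.3.3, with trend and empirical Bayes and 6 group means over 12 libraries, on the deposited scale and after median-of-ratios scaling, with calls at a Benjamini-Hochberg adjusted p under 0.05. The contrasts were 12 h minus 0 h in shALKBH5, and that change minus the same change in shNS. Fold changes on this scale understate those of genes with low values. Functional classes and the genes named are described by counts and medians. Genes were named by rule. The 12 highest and 12 lowest called genes relative to the median gene needed a signal of at least 10 at 0 h in both lines. They also needed 12 h and 0 h knockdown libraries that did not overlap after scaling. The rule also took the 2 highest and 2 lowest members of each class and fixed genes. It added the smallest p of each difference and the largest gaps between lines. The text gives a part of these. The members and lists were chosen with earlier results of these data known. Of the symbols, 9144 matched GENCODE release 29 (GRCh38), which gave coordinates, transcripts and UTRs, and 385 did not. Python 3.11.15 and pandas 2.3.3 were used for sequence searches.

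Libraries of the same letter share a hairpin line and deviated together, with a correlation of the D minus E deviations of 0.685 between 0 and 12 h, so the line was also fitted as a replicate block. The shNS replicates gave 0.047, so their numbers show no pairing, and a block in the knockdown arm only was fitted as well. In the fit with the block in both arms, limma's prior on the spread had infinite degrees of freedom on the deposited scale. After scaling it had 5.34. The p-values of that fit therefore lean on a spread shared by all genes. On simulated libraries of 9529 genes the scaled 12 h test recovered 72% of the genes shifted by 1 log2 unit, and 98% at a shift of 2. It also called 12 genes that were not shifted. Only genes of higher signal were shifted, and the noise was independent between libraries, with no deviation shared by a line. The rates therefore need not hold for all genes or for these libraries. The alternatives were a pseudocount of 0.1, a mean of at least 5, no filter, no trend, the contrast's own groups only, other scalings, the block and leaving out each library. Added after the data were seen were line D alone and line E alone, with the spread taken from the other groups, and the block in the knockdown arm only.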

Additional observations from a re-analysis of the deposited data

How the results depend on the processing

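With the replicate block, which pairs libraries of 1 line or shNS replicate number, 4 genes were higher on the deposited scale and 3333 relative to the median gene. For the difference between arms the block gave 13 higher and 209 lower on the deposited scale, and 169 and 166 relative to the median gene. The other counts under the block stayed within 1.5 times. With the block in the knockdown arm only, 4 genes were higher on the deposited scale, 3428 were higher and 3510 lower relative to the median gene, and the difference between arms gave 11 higher and 149 lower on the deposited scale and 389 and 413 relative to the median gene. Using the libraries of the contrast only, which leaves fewer samples for the spread, 502 genes were higher and 469 lower relative to the median gene. Scaling to ribosomal protein genes gave 178 and 6562 by construction, and METTL3 reversed to -0.3451 (adjusted p = 0.1047). Line E alone, with 1 library at each time and the spread supplied by the other groups, gave 1349 higher. Median percent left came to 10.07% (line D) and 10.09% (line E) for genes with a signal of at least 10 at 0 h, and 12.91% and 12.02% with the ERCC mean log2 set equal across libraries. Apart from the construction named, the cause was not tested.

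Leaving out 1 library gave 1488 to 2283 higher and 1720 to 2462 lower relative to the median gene, the lowest without line D at 0 h. The fall gave 9440 to 9496 lower and 2 to 3 higher. The difference on the deposited scale gave 0 to 1 higher and 0 to 3 lower, the highest without line E at 0 h, and relative to the median gene 0 in either direction. Of the 24 genes named as highest or lowest, 22 were called in every alternative, and FTH1 and SNORD36A were not. The filter of no minimum removed no gene. Of 43 classes, 36 lay on 1 side of the median gene in both lines with members of signal at least 10 as with all members. Low signals at 12 h limit precision, and no depth is known.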

Other observations

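Gene types outside protein-coding genes kept more than protein-coding genes did. In the knockdown lines D and E, 79 antisense genes kept a median of 18.7% and 14.2%, 55 long intergenic RNAs 19% and 14.3%, and 86 transcribed unprocessed pseudogenes 19% and 12.7%, against 10.6% and 10.4% for 8764 protein-coding genes. Their median signal at 0 h was 8.13, 11.1 and 12.7, against 33.2 for protein-coding genes, and the lowest of 5 equal groups of protein-coding genes by signal kept 13.8% and 12.5%. The 13 small nucleolar RNA rows kept 13.7% and 13.2% in lines D and E, where the shNS replicates kept 29.1% and 25.2%, a difference that was not tested as a group. PSMA7, a proteasome subunit, kept 24.6% and 21.5% in lines D and E, against 46.7% and 43.2% in the shNS replicates (adjusted p = 0.58 for the relative difference without the block and 0.0496 with it). ATF4 kept 22.2% and 22.5% in lines D and E, against 52.0% and 47.6% in the shNS replicates (adjusted p = 0.47 without the block and 0.035 with it). DNAJB1, a co-chaperone of HSP70, kept 3.10% and 4.37% in lines D and E, against 10.1% and 9.04% in the shNS replicates (adjusted p = 0.45 without the block and 0.035 with it).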
